A study of Mus musculus with 6 samples.

Results

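Bst2, Ifitm1, Ifitm2, Ifitm3, Ifi35, Ifi27, Lgals3bp, Rtp4, Xaf1 and Clec2d are interferon-induced genes that mostly encode membrane or antiviral proteins, and their RNA was compared between untreated and IFNγ-treated TC-1/A9 tumour cells. They were taken as a list of 10 gene symbols and matched to the array probes through the platform annotation. Of the 10 genes, 8 had a tested probe among the 7807 named genes tested, and Rtp4 and Xaf1 had no named probe and were not analysed here. The 8 genes were read by 10 probes, since Ifi27 and Ifitm1 had 2 probes each, and 9 of the 10 probes were detected on all 6 arrays. Both groups were TC-1/A9 cells of C57BL/6 background, an MHC class I-deficient mouse line derived from TC-1, which are lung cells transformed with the E6 and E7 oncogenes of a human papillomavirus and activated Ha-ras. Untreated cells were cultured in plain medium and the others with IFNγ for 24 h. The labels give a dose of 50 U/ml, whereas the study's methods state a higher dose for its transcriptome samples. Each group held 3 arrays that the study calls biological replicates, all from 1 cell line, so the spread given here is that between cultures of this line.

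Interferons act through JAK kinases and STAT transcription factors. IFNγ acts mainly through a DNA element called the gamma-activated site (GAS), whereas type I interferons act mainly through the interferon-stimulated response element (ISRE). IFNγ also induces IRF1, which can bind ISRE-type sites. Many proteins made in response act at membranes. BST2, or tetherin, holds budding enveloped viruses at the cell surface, the IFITM proteins hinder fusion of enveloped viruses with cell membranes, and CLEC2D, also called Clr-b in mice, is a surface lectin that engages an inhibitory receptor of natural killer cells.

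The 6 arrays had median intensities from 48.7 to 55.4 and between 11504 and 12423 detected probes. IFNγ replicate 3 stood apart, with correlations of 0.986 and 0.984 across probes with the other IFNγ arrays, against 0.993 or more within the untreated group and 0.995 between IFNγ replicates 1 and 2. Where a member's call changed without it, the value is given with that member. Of 25 leukocyte markers, 3 had a named tested probe (Cd14, Cd68 and Csf1r), and none was called. Their mean log2 signals ranged from 6.19 to 8.03 in untreated and from 6.05 to 8.13 in IFNγ-treated cells, near the lowest detected signals of 6.07 to 6.18 for Cd68 and Csf1r. No pan-leukocyte marker, such as Ptprc, and none of 6 lung epithelial markers had a named tested probe. They can be undetected or unannotated, so the tissue of origin could not be checked. Of 4 mesenchymal markers 2 had a named tested probe. In untreated and treated cells Vim was at 13.20 and 13.28 and Fn1 at 8.96 and 9.28.

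After IFNγ, Ifi35, Lgals3bp, Bst2, Clec2d and Ifi27 rose, Ifitm3 was higher on every treated array without passing the test, and Ifitm1 and Ifitm2 were not called. Calling a gene required a probe that passed a false discovery rate (FDR) of 0.01 in limma's moderated test and no probe called the other way. By this rule 5 of the 8 measured genes were higher and 0 were lower, whereas 1.33% of all named genes were called higher and 0.0256% lower. At the probe level 5 of the 10 probes were called higher, against 1.04% of the 13545 tested probes. For 7 of the 10 probes every IFNγ array lay above every untreated array, which held for 6.32% of all tested probes. The median change of the 8 genes was 0.87 on the log2 scale, and that of all named genes was -0.02. The study's own gene tables, made from these arrays, contain Ifi27, Ifi35, Lgals3bp and Clec2d, so the count of called genes is not independent of that earlier work. An array averages over the cells of a culture, so more RNA in every cell and a larger share of responding cells cannot be told apart.

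**Figure D1:**
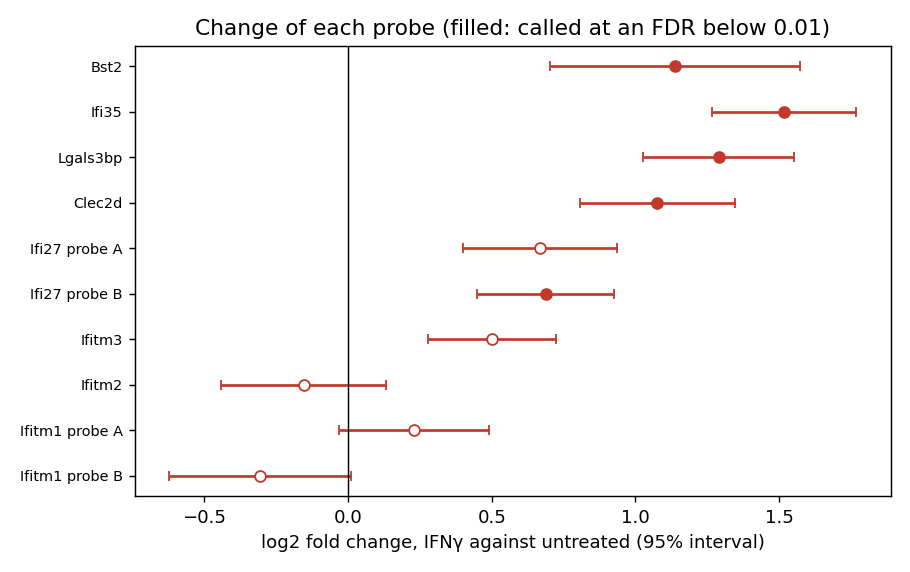
Change of each member probe after IFNγ. Points show the log2 fold change, IFNγ minus untreated, from limma with its 95% confidence interval over 3 arrays per group; Ifi35 lies highest at 1.52, and the intervals of Ifitm1 (both probes) and Ifitm2 include 0.

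Ifi35 encodes a cytoplasmic interferon-induced protein that binds NMI. Its average bead intensity, before normalization between arrays, was 240.1, 164 and 172 in untreated cells and 674, 446 and 425 in IFNγ-treated cells. All treated arrays lay above all untreated arrays. The mean normalized log2 signal went from 7.52 ± 0.11 to 9.04 ± 0.15 (SD, n = 3 arrays per group), a 2.86-fold rise with a 95% confidence interval of 2.41 to 3.41. The log2 change was 1.52 (SE 0.12, limma adjusted p = 2.01e-06), rank 27 among the 7807 named genes. Ifi35 had the largest fitted log2 change of the members. It stayed called under all 20 alternative settings, some of which could not remove its call. Its rank against Bst2, which was below detection in untreated cells, is not settled. With neqc background correction Bst2 changed by 1.89 and Ifi35 by 1.72.

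Lgals3bp encodes a secreted glycoprotein that binds galectins and matrix proteins. Its intensity was 126, 101 and 107 in untreated and 315, 196 and 269 in treated cells. The groups did not overlap, although IFNγ replicate 2 was clearly below the other treated arrays. After normalization the signal rose from 6.76 ± 0.13 to 8.05 ± 0.18 (SD, n = 3 arrays per group), which is 2.44-fold (95% confidence interval 2.04 to 2.93; limma adjusted p = 2.02e-05). Lgals3bp ranked 32 by log2 change (1.29, SE 0.12), and it too was called under all 20 alternatives.

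Bst2 started below detection. Its untreated intensities of 62.4, 56.9 and 51.5 had detection p-values of 0.0855, 0.110 and 0.157 against the negative controls, above the limit of 0.01. In treated cells the intensities were 104, 166 and 97.7, each with a detection p of 0. Bst2 was therefore seen only on the IFNγ arrays, and those arrays differed among themselves. IFNγ replicates 1 and 3 had similar log2 signals, 6.58 and 6.66, whereas replicate 2 reached 7.58. The 3 untreated log2 signals were 5.83, 5.83 and 5.76.

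The spread of Bst2 among treated arrays was wide, with an SD of 0.56 on the log2 scale. Among the 11304 probes detected on all IFNγ arrays, 99.7% had a smaller SD, and their median SD was 0.15. That the treated arrays of Bst2 differ was known when the gene was singled out for values by array, so this rank describes it and tests nothing. The fitted log2 change of Bst2 was 1.14 (SE 0.20, 95% confidence interval 0.70 to 1.57, limma adjusted p = 0.00741). This size depends on how background is treated, since the untreated signals are not above it. The change was 1.89 with neqc background correction and 0.99 with normexp background correction. As the untreated level is only an upper bound, the mean rise on these arrays was at least 1.75-fold. It was computed against the higher of each untreated array's own signal and its lowest detected signal. This bound allows for the detection limit and not for the spread among arrays. The fitted 95% confidence interval began lower, at 1.63-fold. Without IFNγ replicate 2 this bound was 1.40-fold, and without replicates 1 or 3 it was 1.98-fold and 1.92-fold. Bst2 remained called without IFNγ replicate 2, with a smaller log2 change (0.84, limma adjusted p = 0.000969). The call was lost when any of the untreated arrays was left out, with adjusted p-values of 0.0992, 0.0400 and 0.0526 without replicates 1, 2 and 3.

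**Figure D2:**
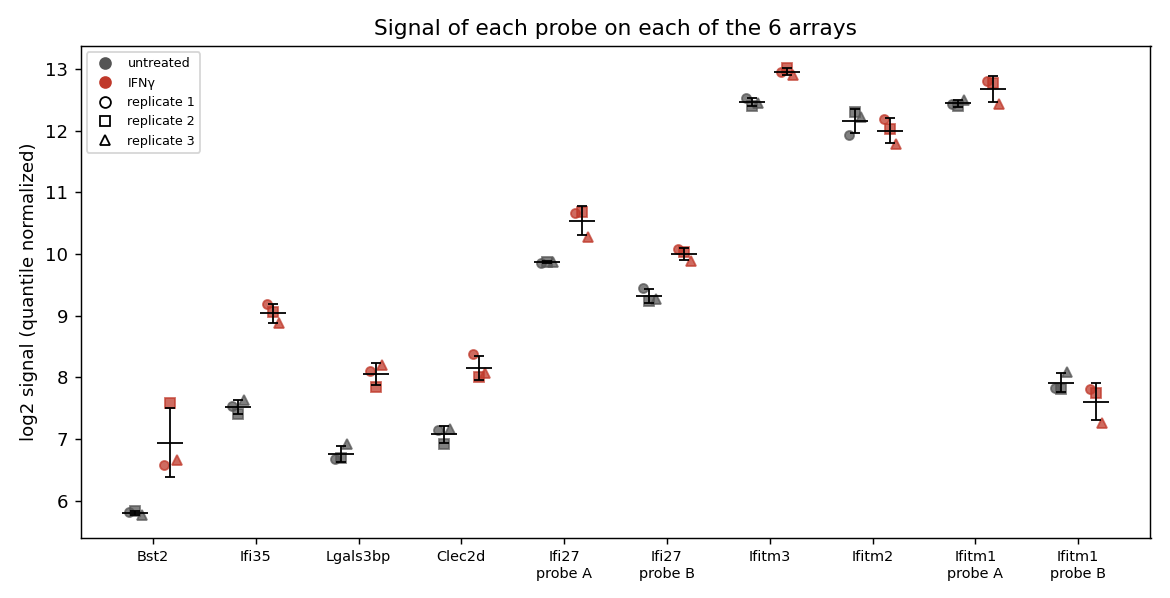
Quantile-normalized log2 signal of each member probe on each of the 6 arrays, untreated and IFNγ replicates 1 to 3. Bst2 is spread from 6.58 to 7.58 among the IFNγ arrays, while the Ifitm probes of high signal lie near 12 to 13 in both groups; probe A is the brighter and probe B the dimmer probe of Ifi27 and of Ifitm1.

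The 5 genes with the pattern most like that of Bst2 were Xdh, Rnf19b, Ube2l6, H2-Q5 and Ifi47. Likeness was the root mean square difference of log2 signals over the 6 arrays, after each probe was centred on its own mean, among 7806 other genes. It was 0.24 for Xdh, a purine-degrading enzyme, 0.27 for the ubiquitin ligase gene Rnf19b, 0.28 for both Ube2l6, the conjugating enzyme of ISG15, and the MHC class I gene H2-Q5, and 0.29 for the GTPase gene Ifi47. Ifi47 was detected on no untreated array and H2-Q5 on 2. Each of the 5 genes was called higher and was highest on IFNγ replicate 2, as Bst2 was. This measure of likeness favours both a similar rise and that order, so neither is a separate result. Xdh, for example, was at 7.68, 7.48 and 7.52 in untreated and 8.20, 8.71 and 8.45 in treated cells.

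The sequence in front of the Bst2 start site is shown because it holds both kinds of interferon site within a short stretch. In RefSeq windows of GRCm38.p6 that run from 250 bases before to 50 bases after each gene start, an ISRE-like motif was searched as GAAANNGAAA (TTTCNNTTTC on the other strand) and a GAS-like motif as TTCNNNGAA, which is its own reverse complement. Of 32851 windows, 3.44% held the first and 8.3% the second. The 8 members with a window include Xaf1, which had no named probe, and leave out Ifi27 and Rtp4, for which no window was matched. Of these 8, 4 held an ISRE-like match (Bst2, Clec2d, Ifitm2 and Ifitm3) and 3 a GAS-like match (Bst2, Ifi35 and Ifitm3). Lgals3bp, Ifitm1 and Xaf1 held neither. A match is a run of letters and no measured binding. Bst2 had a GAS-like match starting 136 bases before the start and ISRE-like matches at 130 and 124 bases before it, which overlap one another. They are in capitals in the 250 bases before the start on the minus strand, chr8:71537473-71537722.
Bst2: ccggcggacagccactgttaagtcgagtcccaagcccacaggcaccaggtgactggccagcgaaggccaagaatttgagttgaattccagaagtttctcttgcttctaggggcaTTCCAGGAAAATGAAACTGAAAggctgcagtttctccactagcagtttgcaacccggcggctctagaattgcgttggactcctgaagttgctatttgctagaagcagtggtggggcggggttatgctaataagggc

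Clec2d was detected on all arrays in both groups. Its intensity was 181, 118 and 126 in untreated and 383, 217 and 249 in treated cells. The groups did not overlap, and the log2 signal rose from 7.08 ± 0.13 to 8.15 ± 0.20 (SD, n = 3 arrays per group). This is a 2.11-fold rise (95% confidence interval 1.75 to 2.54; limma adjusted p = 0.000172). Of 20 alternatives the call was lost under 1, centring on the 75th percentile in place of quantile normalization (adjusted p = 0.0105). As for Lgals3bp, some of the alternatives could not remove the call. The ISRE-like match of Clec2d, in capitals, starts 189 bases before the start, and the stretch is the plus strand of chr6:129180365-129180614, shown for comparison with the tight cluster of Bst2.
Clec2d: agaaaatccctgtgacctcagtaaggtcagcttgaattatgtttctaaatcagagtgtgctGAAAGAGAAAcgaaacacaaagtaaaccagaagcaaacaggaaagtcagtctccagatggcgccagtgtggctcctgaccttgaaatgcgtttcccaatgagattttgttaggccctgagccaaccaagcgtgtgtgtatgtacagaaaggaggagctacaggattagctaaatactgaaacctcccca

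Ifi27 encodes a small hydrophobic protein of interferon responses, and its probes are annotated to different RefSeq transcripts. The brighter probe (A, NM_194069) had intensities of 1285, 926 and 797 in untreated and 1930.2, 1363 and 1073 in treated cells, and the dimmer probe (B, NM_194068) had 961, 596 and 522 and then 1279, 871 and 835. On the normalized scale neither probe's groups overlapped. Probe A changed by 0.67 (SE 0.12), from 9.87 ± 0.01 to 10.54 ± 0.23, and probe B by 0.69 (SE 0.11), from 9.32 ± 0.11 to 10.00 ± 0.10 (SD, n = 3 arrays per group). These changes differ by -0.02, yet the threshold of 0.01 fell between the limma adjusted p-values of 0.0104 for A and 0.00307 for B, so the call of Ifi27 rests on the dimmer probe.

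The within-array difference between the Ifi27 probes averaged 0.55 in untreated and 0.53 in treated cells (exact two-sided permutation p = 0.7, n = 3 arrays per group). Probe B was no longer called without untreated replicate 1, 2 or 3 (limma adjusted p = 0.0108, 0.0344 and 0.0442) or without IFNγ replicate 1 or 2 (0.0260 and 0.0131). Probe A was called without IFNγ replicate 3 (limma adjusted p = 3.44e-05).

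The Ifitm genes lie close together on chromosome 7, with Ifitm1 between Ifitm2 and Ifitm3 in the RefSeq order. Most of their probes were bright before treatment, with mean untreated log2 signals of 12.46 for Ifitm3, 12.44 for the brighter Ifitm1 probe and 12.16 for Ifitm2. The dimmer Ifitm1 probe was at 7.91. Signals of different probes cannot be ranked as RNA levels, and the proteins and genes are closely related, so signal from a related transcript cannot be told apart here. The changes after IFNγ were small beside those of Ifi35 and Lgals3bp.

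Ifitm3 encodes the endosomal member of the family, known for limiting influenza virus entry. Its intensity was 7906, 5548 and 4780.1 in untreated and 9427, 7194 and 6072 in treated cells. Normalized log2 signals were 12.52, 12.40 and 12.45 and then 12.96, 13.01 and 12.91, without overlap and with narrow spread in each group. The log2 change of 0.50 (SE 0.10, 95% confidence interval 0.28 to 0.72), or 1.41-fold, had a limma adjusted p of 0.0250 and was not called. Without IFNγ replicate 3 it passed, at a log2 change of 0.53 and a limma adjusted p of 0.00510.

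Ifitm2 had intensities of 5394, 5175 and 4066 in untreated and 5589, 3628 and 2959 in treated cells. Its treated arrays overlapped the untreated ones, with normalized means of 12.16 ± 0.19 and 12.00 ± 0.20 (SD, n = 3 arrays per group). The log2 change was -0.15 (95% confidence interval -0.44 to 0.13, limma adjusted p = 0.784). The size leaned on single arrays, and it was -0.05 without IFNγ replicate 3, -0.08 without untreated replicate 2, -0.25 without IFNγ replicate 1 and -0.27 without untreated replicate 1.

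For Ifitm1, whose protein sits mainly at the cell surface, the brighter probe read 7499, 5515 and 4955 in untreated and 8492, 6028 and 4550.1 in treated cells. Its log2 change was 0.23 (95% confidence interval -0.03 to 0.49, limma adjusted p = 0.677). The dimmer probe read 301, 219 and 234 and then 256, 183 and 146. After normalization its treated arrays all lay below its untreated arrays, at a mean of 7.61 ± 0.30 against 7.91 ± 0.16 (SD, n = 3 arrays per group). That change of -0.31 (95% confidence interval -0.62 to 0.01) was not called either (limma adjusted p = 0.650). Without IFNγ replicate 3 the brighter probe changed by 0.36 and the dimmer by -0.13, again not called (limma adjusted p = 0.113 and 0.907). The probes of Ifitm1 thus had mean changes of opposite sign, and the direction of this gene is unsettled.

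Differences between probes of the same array were taken on the quantile-normalized log2 scale. The log2 difference of Ifitm3 over Ifitm2 was 0.59, 0.09 and 0.23 on the untreated arrays and 0.77, 0.99 and 1.12 on the treated arrays. The change of 0.65 separated the groups completely, but 3 arrays against 3 cannot give an exact two-sided permutation p below 0.1, which is the value obtained. The change of Ifitm3 over the brighter Ifitm1 probe was 0.27 and that between the Ifitm1 probes was 0.54, each also with an exact permutation p of 0.1. Without IFNγ replicate 3 the first of these was 0.17. With the Ifi27 probes, 4 pairs were compared, and the smallest adjusted p was 0.133.

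The sequences of Ifitm2, Ifitm3 and Ifi35 are given together because their matches lie at different places relative to the start. The match of Ifitm2 starts 46 bases before the start on the minus strand of chr7:140955962-140956211. In Ifitm3 ISRE-like matches begin at positions 3 and 20 of the transcript and a GAS-like match at position 14, so the stretch shown is chr7:141010716-141010742 on the minus strand. The GAS-like match of Ifi35 begins at position 8 after the start, at chr11:101448419-101448427 on the plus strand. Capitals mark the matches.
Ifitm2: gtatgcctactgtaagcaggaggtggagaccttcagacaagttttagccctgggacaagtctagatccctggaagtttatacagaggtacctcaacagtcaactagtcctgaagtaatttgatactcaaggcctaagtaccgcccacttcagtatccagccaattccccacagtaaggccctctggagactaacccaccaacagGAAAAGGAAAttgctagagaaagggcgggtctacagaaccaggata
Ifitm3: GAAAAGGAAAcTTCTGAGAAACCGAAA
Ifi35: TTCACAGAA

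Whether related genes and known partners moved with the members was asked of a list of 43 names, of which 13 had a named tested probe. None of the 13 was called by limma in either direction, and 1.33% of all named genes were called higher and 0.0256% lower. At these shares a list of 13 genes would hold few calls. In simulated data 8.36% of log2 changes of 0.5 were called, so changes of that size could be missed. The brightest probes of the 13 genes changed by -0.34 to 0.36, with a median of -0.02. Cd81 and Cd9, tetraspanins that sit in membranes with IFITM proteins, changed by -0.15 and -0.10, Vapa, whose protein binds IFITM3, by 0.14 and Zmpste24, a protease described as an IFITM cofactor, by 0.14. Among the partners of LGALS3BP, Lgals1 changed by -0.14, Lgals3 by 0.07 and the tetraspanin gene Cd63 by -0.02. Around the XAF1 pathway of apoptosis inhibitors, Birc2 changed by 0.36, Birc5 by -0.14, Htra2 by -0.18 (0.08 and 0.07 on its dimmer probes) and Diablo by -0.34. Only the interval of Birc2 (0.08 to 0.65) and that of Diablo (-0.64 to -0.05) excluded 0 among these 4, with limma adjusted p-values of 0.464 and 0.541. The listed Bst2 neighbours Gtpbp3 and Mvb12a changed by 0.15 and 0.04.

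Most other antiviral interferon-induced genes with a tested probe were called higher as well. Of 71 listed genes 33 had a named tested probe, and the others can be undetected or unannotated. Of the 33, 21 were called higher and 0 lower by limma, against the 1.33% of named genes called higher. The median change of the 33 genes was 0.76, and 12 of them (against 130 of the 7807 named genes) were detected on no untreated array. Those 12 genes entered the test only through the IFNγ arrays, as Bst2 did among the members, so the filter contributes to the count, and 9 genes were called where detection on all 6 arrays was required. Gbp2, a guanylate-binding GTPase, went from 7.02 ± 0.14 to 13.74 ± 0.31 (SD, n = 3 arrays per group), a log2 change of 6.72 (SE 0.15, limma adjusted p = 2.25e-12). Its dimmer probe, below detection in untreated cells, rose at least 4.76-fold (fitted log2 change 2.83), and the mean of its probes changed by 4.78. The GTPase genes Igtp and Irgm2 and the ADP-ribosyltransferase gene Parp14, all below detection without IFNγ, rose at least 53.5-fold, 17.9-fold and 8.14-fold by the bound used for Bst2. Each of these changes exceeded the fitted change of every member. The 12 genes not called changed by 0.08 to 0.73, with Isg15, a ubiquitin-like modifier, at 0.73 (limma adjusted p = 0.0398).

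**Figure D3:**
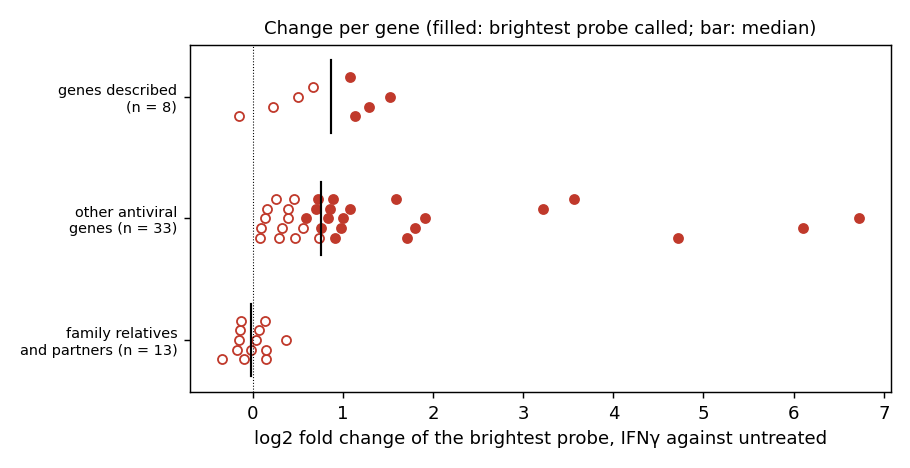
Log2 fold change, IFNγ minus untreated, of the brightest tested probe of each gene in 3 lists: the members, other antiviral interferon-induced genes, and relatives or partners of the members. Relatives lie between -0.34 and 0.36, members reach 1.52 and the other antiviral genes reach 6.72.

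Position among the treated arrays was uneven. Of the 10 member probes, 7 had their lowest IFNγ signal on IFNγ replicate 3, 2 on replicate 2 and 1 on replicate 1. Among the 11304 probes detected on all IFNγ arrays, 40.5% were lowest on replicate 3. Bst2 had its lowest signal on replicate 1. The part of this array in the calls of Ifitm3 and Ifi27 was not tested beyond leaving it out.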

How the data were processed

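RNA of untreated and IFNγ-treated TC-1/A9 cells (3 arrays each) was measured with Illumina Mouse WG6 bead chips. For each of 45281 probes the authors deposited a mean bead intensity (linear, without scaling between arrays) and a detection p-value against the negative controls. The authors also deposited a log2 value table (12421 probes), which differed by at most 4.97e-14 from the log2 intensities after quantile normalization. No source used here states the background setting of the scanner export.

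Log2 intensities were quantile normalized over all probes, and the 13545 probes with a detection p of 0.01 or less on at least 1 array were tested with limma version 3.58.1 (lmFit, eBayes) in R version 4.3.3. P-values were adjusted by Benjamini-Hochberg over these probes, and an FDR below 0.01 was called. The fit was tested on simulated data. A gene's value is that of its brightest tested probe. Platform symbols were updated through Entrez identifiers (9809 probes), accessions (729) or synonyms (389), and 253 were kept as listed. The symbols cover value-table probes only, so naming acts as a detection filter, and 2365 tested probes had no name. All members and their relatives with a tested probe are named, with up to 4 called antiviral genes of largest change and the 5 genes nearest to Bst2. The members and lists were chosen with earlier results of these data known. The number of arrays limits the precision. Alternatives covered background correction, normalization, detection filter, variance model, threshold, probe summary and each array left out.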

Additional observations from a re-analysis of the deposited data

How the results depend on the processing

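The 5 member genes called higher became 2 with 75th-percentile centring and ranged from 3 to 6 when 1 array was left out, with 3 without each untreated array. Bst2 was not called with normexp background correction (limma adjusted p = 0.0251), with 75th-percentile centring (0.0179) or without a detection filter (0.0638), and it was not tested where detection on all 6 arrays was required. Over its 19 alternatives its adjusted p ranged from 4.81e-06 to 0.0992. Ifi27 probe B was lost with neqc (0.0181) and 75th-percentile centring (0.357), and over 20 alternatives probe A was called in 6 and probe B in 12.

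Probes called higher, 141 as reported, numbered 78 with 75th-percentile centring, 74 with detection on all 6 arrays 71 with a log2 change of at least 1 and 248 with array weights, and 85 to 171 with 1 array left out, lowest without untreated replicate 3. Probes called lower, 2 as reported, numbered 1 with neqc, with detection on all 6 arrays, with trend and robust eBayes and with the mean of a gene's probes, 0 with 75th-percentile centring or a log2 change of at least 1, 7 at an FDR of 0.05, 35 with array weights and 0 to 6 with 1 array left out. The 21 antiviral genes called higher became 12 with 75th-percentile centring, 9 with detection on all 6 arrays (fewer genes tested), 11 with a log2 change of at least 1, and 12 to 22 with 1 array left out. The causes were not tested.

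Signs turned for values that were not called, namely Ifitm1 to -0.0377 with the mean of its probes, Cd63 to 0.0004 with cyclic loess, Htra2 to 0.0031 with array weights, Lgals3 to -0.027 and Mvb12a to -0.0487 with 75th-percentile centring. With 1 array left out, the log2 change ranged from -0.0996 to 0.0437 for Cd63, -0.3273 to 0.0843 for Htra2, -0.2201 to 0.0002 for Lgals1, -0.0593 to 0.1637 for Lgals3, -0.0691 to 0.2419 for Mvb12a and -0.0901 to 0.0603 for the difference between the Ifi27 probes. With a replicate block 145 probes were higher and 3 lower, with 5 member genes and 21 antiviral genes called. Same-numbered arrays deviated with correlations of -0.19, 0.04 and -0.02, and differently numbered arrays with -0.16 to 0.21. No pairing by number was seen, but so few arrays cannot show whether the cultures were paired.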
